A study of Mus musculus with 2 samples.

Results

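Vascular smooth muscle cells, the contractile cells that wrap arteries, arterioles and, more thinly, veins, were picked out of 2 single-cell libraries of whole mouse brain at postnatal day 10. A barcode was taken as a smooth muscle cell if it held at least 500 genes, at least 1500 UMIs (unique molecular identifiers, each marking 1 captured messenger RNA) and at most 10% mitochondrial UMIs. It also had to hold at least 10 UMIs of Acta2, Tagln and Myh11 together with at least 1 of Myh11, at most 2 of the endothelial genes Cldn5 and Flt1 together, and at most 2 of the fibroblast genes Dcn and Lum together. The cells were thus chosen by their own UMIs of these genes, which are therefore described and not tested. This rule found 72 cells, out of 20741 barcodes within the quality limits and 32486 barcodes in all. Library 1 held 64 of them, 0.557% of its 11486 barcodes within the limits (95% Clopper-Pearson interval 0.429% to 0.711%). Library 2 held 8, 0.0864% of 9255 (interval 0.0373% to 0.170%). The intervals cover counting error only, and a share of barcodes need not be the share of cells in the tissue.

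Both libraries belong to 1 group: untreated brain tissue of mice of the strain given as C57BL/J, with no altered allele named. Fresh suspensions were run with the Chromium 3' v3 kit of 10x Genomics. The series names 6 mice and ties none of them to a library, and nothing says that the libraries came from separate animals. Every p-value below thus rests only on how cell classes vary between these libraries beyond a shared library shift. That spread is pooled over the classes fitted and may be technical. There is no treated or control group, and the comparisons are between cell classes that share a suspension.

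The libraries differed in depth. The 12978 barcodes of library 1 summed to 51452085 UMIs and the 19508 of library 2 to 45532691, with 3446 and 1470 UMIs in the median barcode. Of the barcodes, 88.5% and 47.4% met the quality limits. The smooth muscle cells themselves differed less, with a median depth of 5390 and 4250 UMIs, a median of 2004.5 and 1684 genes and a median mitochondrial share of 2.95% and 3.33%. The libraries shared 90 barcode sequences, and 0 of these belonged to a smooth muscle cell. Scrublet, a caller of droplets with more than 1 cell, marked 4 of the 64 and 0 of the 8 cells.

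As background, smooth muscle cells set the diameter of a vessel by contracting actin and myosin filaments when calcium enters the cytosol and activates myosin light chain kinase. Signals through cyclic GMP and cyclic AMP oppose that contraction, and RhoA signalling prolongs it. In the brain they share the vessel wall with pericytes, mural cells of the capillaries that carry little smooth muscle actin, and both depend on Notch3 and on the PDGF receptor Pdgfrb during development. The larger the artery, the more elastin and collagen its smooth muscle lays down. Many contractile genes carry a CArG box, the site bound by serum response factor with its partner myocardin.

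Promoter sequences are shown here because they show that box, or a near form of it, in 4 genes that were high in these cells. Each is the 250 bases before the transcription start, 5′ to 3′, from RefSeq on GRCm38.p6, the assembly that mm10 names. Capitals mark a CArG box (CC, then 6 letters of A or T, then GG) or a CArG-like stretch, in which 1 of those 6 letters is G or C. Acta2 encodes the smooth muscle actin and its gene lies on the minus strand at chr19:34241090-34255590. Its promoter window, chr19:34255374-34255623 on the minus strand, held 2 CArG-like stretches, 84 and 34 bases before the start. That start is from RefSeq and the gene span from GENCODE, so most of the window, with both stretches, lies inside that span.
Acta2: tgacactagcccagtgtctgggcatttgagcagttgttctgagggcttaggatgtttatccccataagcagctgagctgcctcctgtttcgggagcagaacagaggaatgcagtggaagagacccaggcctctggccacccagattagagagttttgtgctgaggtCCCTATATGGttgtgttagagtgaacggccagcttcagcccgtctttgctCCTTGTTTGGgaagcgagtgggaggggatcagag
Myl9 encodes the regulatory light chain of smooth muscle myosin. Its window, chr2:156775214-156775463 on the plus strand, held a CArG box 161 bases before the start and a CArG-like stretch 99 bases before it.
Myl9: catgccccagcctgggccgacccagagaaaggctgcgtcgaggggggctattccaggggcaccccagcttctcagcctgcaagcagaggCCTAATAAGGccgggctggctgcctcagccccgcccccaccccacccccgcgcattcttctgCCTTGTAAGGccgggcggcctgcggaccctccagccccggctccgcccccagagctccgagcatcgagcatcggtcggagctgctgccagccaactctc
Filip1l encodes a protein of the actin cytoskeleton. Of its start sites, the window at chr16:57548992-57549241 on the plus strand held a CArG box 62 bases before the start.
Filip1l: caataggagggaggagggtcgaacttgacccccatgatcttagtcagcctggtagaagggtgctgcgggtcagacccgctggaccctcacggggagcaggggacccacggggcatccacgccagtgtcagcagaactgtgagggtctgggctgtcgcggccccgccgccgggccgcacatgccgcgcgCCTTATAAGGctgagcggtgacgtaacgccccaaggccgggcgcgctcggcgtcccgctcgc
Crip1 encodes a small LIM-domain protein. Its window, chr12:113151762-113152011 on the plus strand, held CArG-like stretches 96 and 18 bases before the start.
Crip1: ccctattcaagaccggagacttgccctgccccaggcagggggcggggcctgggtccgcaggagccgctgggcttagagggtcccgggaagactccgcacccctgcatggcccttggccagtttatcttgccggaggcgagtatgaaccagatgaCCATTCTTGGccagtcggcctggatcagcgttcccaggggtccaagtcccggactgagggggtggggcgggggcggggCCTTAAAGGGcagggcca
Both strands were searched, and a CArG box also counts as CArG-like here. Over the same length, 482 of all 32851 promoters in the table held a CArG box (1.47%) and 2823 held a CArG-like stretch (8.59%). Of the 38 promoters of 30 genes on the list of contractile apparatus genes described below, 6 held a CArG box (15.8%) and 10 a CArG-like stretch (26.3%). Besides Myl9 and Filip1l, the boxes lay before Ldb3, Myl6 and Vcl. Overlapping windows of Ldb3 hold the same box, so it is counted again there. By gene, 5 of the 30 had a CArG box and 9 a CArG-like stretch. A match is a description of these letters and not evidence of binding.

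The genes of the rule were high in nearly every member by construction, and their values describe the cells without testing anything. Acta2 reached 5 to 214 UMIs a cell in library 1 (median 68) and 12 to 111 in library 2 (median 48). Tagln, which encodes the actin-binding protein transgelin, ran from 1 to 152 (median 40) and from 3 to 74 (median 43.5). Myh11, the smooth muscle myosin heavy chain, sat close to its floor, at 1 to 11 UMIs and 1 to 4 UMIs with a median of 2 in both libraries. The 3 genes together took 0.112% to 7.63% of a cell's UMIs in library 1 (median 2.01%) and 0.265% to 4.05% in library 2 (median 2.66%), so the members covered a wide range of contractile content. Summed over the cells of a library and scaled to CPM (each UMI count divided by the sum's total and multiplied by 1000000), Acta2 stood at 13420 and 12019, Tagln at 8099 and 9436 and Myh11 at 577 and 449.

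Myl9, the marker that the rule did not use, had a UMI in all 64 and all 8 cells, with 2 to 102 UMIs a cell in library 1 (median 25) and 5 to 33 in library 2 (median 15). With each cell thinned to 1500 UMIs, 100% and 75% of the smooth muscle cells kept a Myl9 UMI, beside 87.5% and 82% of pericytes, 0.87% and 0% of endothelial cells and 4.44% and 3.45% of astrocytes. Endothelial cells and astrocytes stand for the level that free RNA can give, though their gates cap Acta2, Tagln and Myh11 and may lower it. Acta2, Tagln and Myh11 chose the cells, so their levels are no check of the label. Myl9 set the cells apart from endothelial cells and astrocytes in these shares, but it is shared with pericytes and does not separate the mural classes by presence alone.

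Myh11 decided who was left out at the edge of the rule. Acta2, Tagln and Myh11 together reached 10 UMIs in 113 barcodes of library 1 and 18 of library 2. Of these, 46 and 10 failed only because they held no Myh11 UMI. They had a median of 23 and 30 UMIs of the gate genes against 112.5 and 98 in the members. Most of them, 41 of 46 and 9 of 10, held at least 4 UMIs of the pericyte genes Kcnj8, Abcc9 and Vtn together, and their median Rgs5 count was 37.5 and 40 UMIs. Kcnj8 or Abcc9 had a UMI in 28 of 46 and 6 of 10. Members held these mural genes too, with a median Vtn count of 10.5 and 9 UMIs, against 19 and 15 in the barcodes left out. Most members thus reached 4 UMIs by Vtn alone, so that limit does not separate them from the barcodes left out. The median Rgs5 count of the members was 33 and 18.5. With Myh11 present, 0 and 1 barcodes had a gate sum of 5 to 9 UMIs, just outside, and 4 and 1 had 10 to 19, just inside.

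RNA of other cell types was present in a minority of members. At least 3 UMIs of microglia, astrocyte, neuron or oligodendrocyte markers were found in 10 of the 64 cells and 2 of the 8. The endothelial list of 8 markers summed to 121 and 168 CPM, with Cdh5, Ly6c1, Pecam1, Slco1a4 and Tie1 at 0 UMIs in both libraries. The microglia list of 8 was at 69.0 CPM in library 1, where 7 of its 8 genes were at 0, and at 2162 CPM in library 2, where all 8 were detected. There 2 of the 8 cells held the microglial gene C1qa, with at most 22 UMIs in 1 cell. The fibroblast list of 8 stood at 880 and 2050 CPM, most of it Col1a2 (187 and 30 UMIs) and Col3a1 (95 and 30). Of the others, Col1a1 had 0 and 11 UMIs, the latter in 2 cells, Slc6a13 had 0, and Dcn and Lum, which the rule itself limits, had 0. The pericyte list was at 3990 and 3482 CPM. Of the pericyte genes, Kcnj8 or Abcc9 had a UMI in 17 and 0 cells and Vtn in 59 and 7. Counts without the cells that held other markers are given where they differ.

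**Figure D1:**
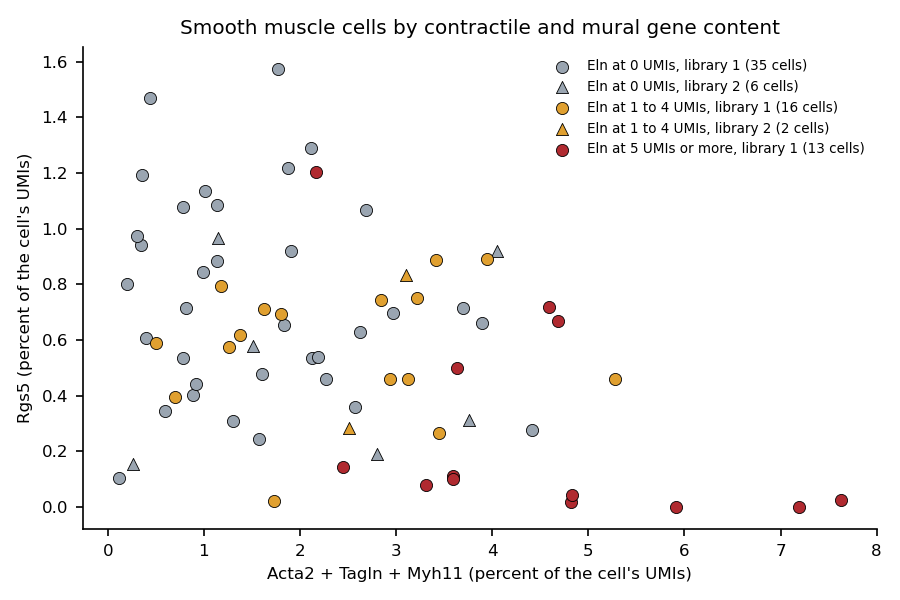
Each point is 1 smooth muscle cell, by library. The horizontal axis gives Acta2, Tagln and Myh11 together and the vertical axis Rgs5, both in percent of the cell's UMIs. The gate genes span 0.112% to 7.63%, and the 13 cells with Rgs5 under 0.2% lie from 0.112% to 7.63%, with 10 of them above the median of all cells (2.12%).

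Smooth muscle cells were first compared with pericytes, their nearest neighbours in the vessel wall. Pericytes were 464 barcodes of library 1 and 61 of library 2. They held at least 4 UMIs of Kcnj8, Abcc9 and Vtn together, with at least 1 of Kcnj8 or Abcc9, and at most 2 of Acta2, Tagln and Myh11. Their median depth was 3947.5 and 3576 UMIs. The UMIs of each class were added up within a library, and 5 classes (these, endothelial cells, astrocytes and microglia) entered 1 quasi-likelihood fit of edgeR with the library as a block. A gene is called higher or lower below where the Benjamini-Hochberg adjusted p over 10390 genes was under 0.05, the fitted log2 fold change was at least 1 in size and its sign was the same in both libraries. By this rule 274 genes were higher in smooth muscle cells (2.64% of those tested) and 354 lower (3.41%), with a median log2 fold change of -0.18 over all genes (-0.11 with genes at 0 UMIs in 1 class set to their bound). That median was -1.46 without library 1 and -0.09 without library 2. Log2 fold changes given below without library 1 thus lie lower as a whole. DESeq2's Wald test called 188 and 101, without library 1 the counts were 106 and 142, and without library 2 they were 323 and 266. The gates chose the classes, so these values describe the classes as drawn, and the pericyte gate caps smooth muscle genes, so the contractile list is not independent of it.

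Genes of the contractile apparatus were called in 1 direction. Of 34 listed, 26 were tested, 16 were higher and 0 lower, beside 2.64% higher among all genes, and the median log2 fold change was 1.96. Crip1 stood at 7258 and 5953 CPM against 454 and 469 in pericytes, a log2 fold change of 3.75 ± 0.25 (SE; edgeR adjusted p = 7.4e-48). Tpm2, a tropomyosin that lies along the actin filament, stood at 2519 and 1797 CPM against 203 and 202 (3.37 ± 0.25, adjusted p = 8.2e-38). In both genes the smooth muscle libraries lay well clear of the pericyte libraries.

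Tpm1, the other tropomyosin, followed at 1802 and 2022 CPM against 248 and 247 (2.83 ± 0.25). Csrp1, a LIM-domain protein of the cytoskeleton, stood at 806 and 758 CPM against 62.6 and 65.8 (3.60 ± 0.27), and Mustn1 at 378 and 562 against 43.0 and 32.9 (3.30 ± 0.30). Sorbs2, Filip1l, Actn1 (an actin crosslinker), Ppp1r12b (a targeting subunit of myosin phosphatase), Pcp4l1 and the laminin-binding integrin Itga7 were higher by 2.20 to 3.46 on the log2 scale. All of these kept their call with either library left out.

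Actg2, the gamma smooth muscle actin better known from gut and bladder, gave the sharpest contrast. The gene lies at chr6:83512905-83536265 on the minus strand. It had 141 UMIs in 33 of 64 cells of library 1 and 11 UMIs in 5 of 8 cells of library 2, or 389 and 309 CPM. Pericytes, endothelial cells, astrocytes and microglia all had 0, and against a floor of 3 UMIs over the pericyte class the level was at least 277-fold higher. After thinning, 32.8% and 50% of smooth muscle cells kept a UMI, against 51.6% and 62.5% before. Acta2 and Actg2 are close paralogs that encode nearly identical proteins, and how reads shared by such genes were counted is not described in the labels, so the split between them is uncertain. Lmod1, an actin nucleator of smooth muscle, stood at 71.7 and 140.4 CPM against 1.87 and 8.23 (4.84 ± 0.73, adjusted p = 2.5e-09). Without library 1 neither Actg2 nor Lmod1 had enough counts to be tested.

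Several contractile genes differed less. Myl9 stood at 4934 and 4044 CPM against 1860 and 2074 in pericytes (1.06 ± 0.23, adjusted p = 0.00015), the muscle intermediate filament gene Des at 293 and 309 against 113 and 111 (1.37 ± 0.28), and Pdlim7 at 265 and 281 against 82.2 and 74.1 (1.72 ± 0.27). These 3 calls were lost without library 1, where the log2 fold changes were 0.70, 1.09 and 1.23 beside a median of -1.46 over all genes. The pooled ratios to pericytes, from summed UMIs, were 2.15, 2.75 and 3.45 without library 1. With both libraries they were 2.58, 2.62 and 3.27. The kinase gene Mylk stood at 425 and 534 CPM against 219.9 and 218, a log2 fold change of 0.99 ± 0.24 that missed the size limit. Cald1, Ppp1r14a, Myl6 and Itga1 had log2 fold changes of -0.13, 0.00, 0.59 and -0.33 with adjusted p of 0.081 or more. These genes did not pass, which does not show equal levels. With library 1 left out the list had 11 higher of 24 tested and 0 lower, and with library 2 left out 20 of 29 and 0.

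Genes of the contractile list that library 2 could not test included Cnn1, the actin-binding protein calponin. It had UMIs in 14 of 64 cells of library 1 and 0 of 8 cells of library 2, and 1 UMI in pericytes. The pooled ratio was 144 with a counting interval of 23.4 to 5914. Myocd, the myocardin gene, had 14 UMIs in 9 cells of library 1, 0 in library 2 and 0 in pericytes, at least 15.4-fold higher against the floor (30.7-fold without library 2, and no bound without library 1). In library 2 a count of 0 allows a level of up to 84.2 CPM and a UMI in up to 37.5% of cells, so absence there is not shown.

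**Figure D2:**
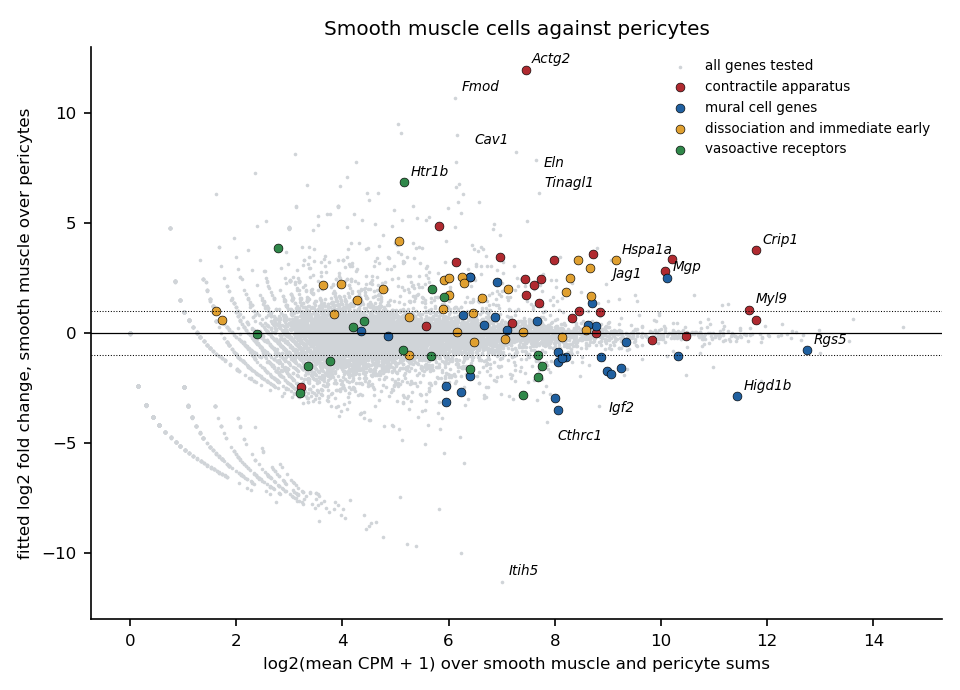
Each point is 1 gene tested. The horizontal axis gives its mean level over smooth muscle and pericyte sums as log2(mean CPM + 1) and the vertical axis the fitted log2 fold change of smooth muscle cells over pericytes, with the genes of 4 lists coloured and dotted lines at a log2 fold change of 1 and -1. Contractile genes lie mostly above 0 (16 higher, 0 lower), mural genes on both sides (4 higher, 15 lower), and genes at 0 UMIs in 1 class form the outermost points, where the fitted value is no measure of size.

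Calcium handling and ion channel genes split in both directions, 7 higher and 4 lower of 26 tested (34 listed, median log2 fold change 0.39), beside 2.64% and 3.41% among all genes. Higher were the sodium-calcium exchanger Slc8a1, at 60.7 and 112 CPM against 5.14 and 0 (3.85 ± 0.57, edgeR adjusted p = 1.3e-09), and the plasma membrane calcium pump Atp2b4, at 77.3 and 84.2 against 9.81 and 0 (3.17 ± 0.50). The sarcoplasmic reticulum pump Atp2a2 stood at 331 and 281 CPM against 139 and 115 (1.25 ± 0.27). Pln, whose product phospholamban restrains that pump, had 11 and 9 UMIs in 9 of 64 and 2 of 8 cells, and 0 in pericytes, at least 113-fold higher. That bound rested on library 2 and was 24.1-fold without it and 201-fold without library 1. Potassium channel subunit Kcnab1 and calcium channel subunits Cacnb2 and Cacnb3 were also higher.

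The other reticulum pump gene went the opposite way. Atp2a3 stood at 38.6 and 0 CPM against 123 and 177 in pericytes (-1.89 ± 0.42, adjusted p = 0.00027). The cation channel gene Trpc4 was also lower (-2.56 on the log2 scale). Values of the main entry channel Cacna1c were 60.7 and 28.1 CPM against 45.8 and 24.7 (adjusted p = 0.764), and those of the chloride channel Ano1 were 82.8 and 56.2 against 43.4 and 65.8 (adjusted p = 0.375).
Without library 1 the calls of Atp2a2, Atp2b4, Kcnab1, Cacnb2, Cacnb3 and Trpc4 were lost (edgeR adjusted p from 0.342 to 0.82) and Pln could not be tested, which left 1 higher and 2 lower. Without library 2 those of Cacnb3 and Trpc4 were lost (adjusted p = 0.0576 and 0.0659) and Pln could again not be tested.

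Receptors for vasoactive signals were 3 higher and 5 lower of 17 tested, beside 2.64% and 3.41% among all genes. Of 36 listed, 19 were too low to test. Htr1b, the serotonin receptor that is the target of the triptan drugs, lies at chr9:81628291-81633828 on the minus strand. It had 20 UMIs in 14 of 64 cells and 3 UMIs in 2 of 8 cells, and 1 UMI in all pericytes, a pooled ratio of 138 (counting interval 22.4 to 5677). Endothelial cells had 0 Htr1b UMIs, and astrocytes and microglia 1 each. Its shares after thinning were 10.9% and 12.5% of smooth muscle cells, against 21.9% and 25% before. The CGRP receptor component Ramp1 stood at 63.5 and 112 CPM against 18.7 and 8.23 (2.01 ± 0.44), while its partner Calcrl had 3 UMIs in each library. The neuropeptide Y receptor Npy1r stood at 91.1 and 84.2 CPM against 27.5 and 32.9 (1.64 ± 0.46).

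Other receptors were lower in smooth muscle cells than in pericytes. The endothelin receptor Ednra stood at 119 and 84.2 CPM against 313 and 342 (-1.51 ± 0.29, edgeR adjusted p = 1.0e-05). Tbxa2r, for thromboxane, stood at 105 and 0 against 358 and 358 (-1.99 ± 0.30), and S1pr3, for sphingosine phosphate, at 41.4 and 28.1 against 252 and 354 (-2.82 ± 0.37). The thrombin receptor F2r and P2ry14 were lower (-1.01 and -1.65 on the log2 scale). Without library 1 the calls of Ramp1, Npy1r, F2r and P2ry14 were lost (adjusted p = 0.214, 0.783, 0.105 and 0.746) and Htr1b was not tested, leaving 0 higher and 3 lower, and without library 2 F2r was lost (adjusted p = 0.0808).

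Among genes of cyclic nucleotide and RhoA signalling 4 were higher and 5 lower of 34 tested (2.64% and 3.41% among all genes), with most not called. The 5 lower fell to 0 under DESeq2's Wald test, to 0 without library 1 and to 2 without the cells that held other markers. Pde3a, the cyclic GMP-inhibited phosphodiesterase, stood at 323 and 365 CPM against 69.6 and 78.2 (2.18 ± 0.29, edgeR adjusted p = 6.2e-12). Rgs16, Rgs7bp and Pde1a were the other higher genes, by 3.04, 1.42 and 1.69 on the log2 scale. Pde5a, the cyclic GMP phosphodiesterase blocked by sildenafil, stood at 113 and 168 CPM against 319.8 and 230.5 (-1.28 ± 0.29), and Gucy1a1, a subunit of the nitric oxide receptor, at 190.4 and 337 against 453 and 469 (-1.09 ± 0.26). Rgs4, Pde8a and Arhgap42 were also lower. RhoA itself was at 867 and 786 CPM against 870.3 and 852 (adjusted p = 0.903). The direction was thus mixed within this list. Without library 1 only Rgs16 kept its call (adjusted p = 0.00889), with 0.0627 for Pde3a and 0.0733 to 0.886 for the others, and without library 2 that of Pde1a was lost (adjusted p = 0.0869).

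Of 34 mural cell genes listed, 31 were tested, 4 were higher and 15 lower in smooth muscle cells (2.64% and 3.41% among all genes), with a median log2 fold change of -0.88. DESeq2's Wald test called 2 higher and 5 lower, and without library 1 edgeR called 2 and 11. Kcnj8, Abcc9 and Vtn chose the pericytes and were not tested. Higd1b, a mitochondrial protein gene and pericyte marker, stood at 858 and 477 CPM against 4445 and 5305 (-2.88 ± 0.26, edgeR adjusted p = 1.1e-26), and Atp13a5 at 49.7 and 0 against 490.3 and 531 (-3.51 ± 0.34). Pdgfrb, the receptor by which both cell types answer PDGF-B, stood at 254 and 421 CPM against 746 and 1021 (-1.59 ± 0.26). No smooth muscle library reached a pericyte library in these 3 genes.

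Also lower were Art3, Ifitm1, Cox4i2, Anpep, Colec12, Ndufa4l2 and the connexin Gjc1, with log2 fold changes from -2.96 to -1.04. Zic1, Slc6a20a and Rgs4 were lower too, but lost the call without library 1 (adjusted p from 0.0714 to 0.459), and Ndufa4l2 and Gjc1 lost it without library 2, where their log2 fold changes were -0.87 and -0.76. Rgs5, the textbook mural gene, had a UMI in 62 of 64 and 8 of 8 cells, with 5850 and 5139 CPM against 7957 and 8766. Its log2 fold change of -0.76 ± 0.21 (adjusted p = 0.00774) was under the size limit. Notch3, the receptor mutated in the small vessel disease CADASIL, stood at 408 and 505 CPM against 314 and 346 (0.38 ± 0.24, adjusted p = 0.472), and Heyl, Tbx18, Foxs1 and Ebf1 also had adjusted p of 0.319 or more.

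The 4 mural genes that were higher were Mgp, Gja4, Bcam and Itga7. Mgp, an inhibitor of calcification, stood at 2194 and 1573 CPM against 335 and 313 (2.51 ± 0.24, edgeR adjusted p = 1.5e-23). The connexin Gja4, known from arterial walls, stood at 679 and 505 against 240.5 and 235 (1.36 ± 0.24), and the laminin receptor Bcam at 273 and 112 against 51.4 and 41.2 (2.31 ± 0.31). Gja4 and Bcam lost their calls without library 1, where they were at 0.65 and 0.52 on the log2 scale. Their pooled ratios to pericytes were 2.11 and 2.23 without library 1, and 2.77 and 5.14 with both. Mgp and Itga7 kept their calls.

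**Figure D3:**
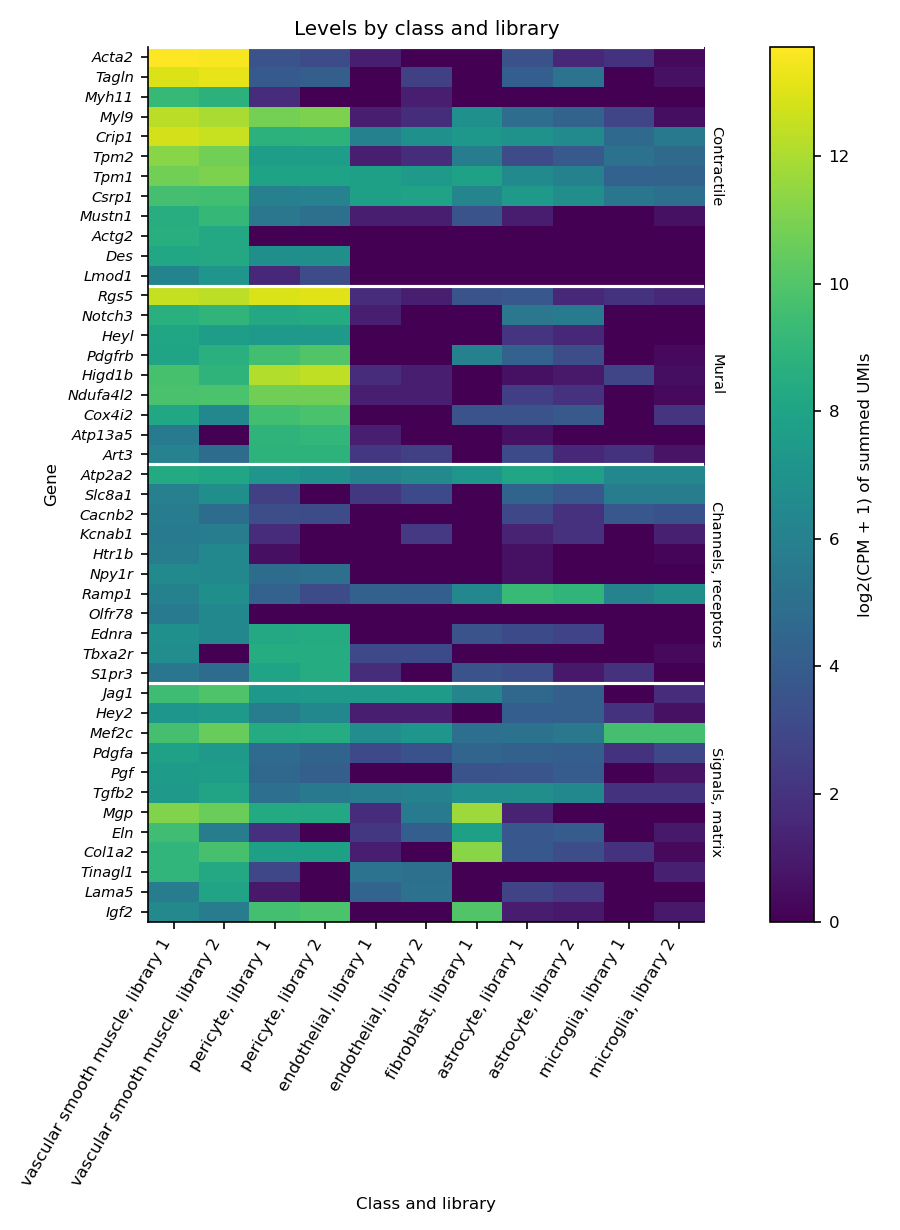
Summed UMIs of each class and library are shown as log2(CPM + 1), with genes in rows and classes in columns. Contractile genes such as Actg2 and Tpm2 are highest in the smooth muscle columns, Higd1b and Pdgfrb in the pericyte columns, and Rgs5 and Notch3 are high in both mural classes.

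Transcription factors showed 5 higher and 2 lower of 30 tested (2.64% and 3.41% among all genes), and 2 and 0 under DESeq2's Wald test. Mef2c, a partner in muscle gene programmes, stood at 803 and 1488 CPM against 341 and 354 (1.47 ± 0.25, edgeR adjusted p = 1.5e-07) and kept its call without either library. Zfhx3 stood at 306 and 421 CPM against 135 and 132 (1.27 ± 0.26), Hey2 at 146 and 168 against 54.6 and 82.3 (1.30 ± 0.34) and Prrx1 at 179 and 168 against 75.6 and 61.7 (1.26 ± 0.32). Klf4 was higher at 24.8 and 28.1 CPM against 6.07 and 0. The forkhead gene Foxf2, a regulator of brain pericytes, was lower at 24.8 and 0 CPM against 92.5 and 103 (-2.06 ± 0.48), as was Zic1 at 160.1 and 225 against 349 and 391. Apart from Mef2c, every one of these calls was lost without library 1 (adjusted p from 0.11 to 0.755).

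In the Notch pathway 3 of 28 tested genes were higher (2.64% among all genes) and 1 lower, a share of 3.57% that is near the 3.41% of all genes. The ligand Jag1 stood at 698 and 983 CPM against 155 and 169 in pericytes (2.22 ± 0.24, edgeR adjusted p = 1.9e-17) and against 168 and 181 in endothelial cells (1.88 ± 0.24, adjusted p = 1.2e-13), so it was higher than in both neighbours. It was also detected in 57 of 64 and 8 of 8 cells. The target genes Nrarp, at 265 and 140.4 CPM against 85.4 and 53.5 (1.62 ± 0.28), and Hey2 were higher, while Hes5 was lower and Hes1 stood at 262 and 309 against 374 and 489.7 (adjusted p = 0.134). Without library 1 the calls of Nrarp, Hey2 and Hes5 were lost (adjusted p = 0.788, 0.746 and 0.268), and without library 2 that of Hes5 (adjusted p = 0.0576). The call of Jag1 was kept in both cases.

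Matrix genes of the elastic and interstitial kind were 8 higher and 3 lower of 31 tested, of 43 listed, and 4 and 1 without library 1. Among all genes 2.64% were higher and 3.41% lower. Eln, the gene of elastin at chr5:134702593-134747323 on the minus strand, had 266 UMIs in 29 of 64 cells of library 1 and 2 UMIs in 2 of 8 cells of library 2. Its levels were 734 and 56.2 CPM against 2.80 and 0 in pericytes (7.84 ± 0.42, edgeR adjusted p = 3.7e-73). Astrocytes had an Eln UMI in 6.67% and 8.62% of cells, from a source not tested, against 45.3% and 25% of smooth muscle cells. The call thus rested on library 1, and without it the log2 fold change was 3.41 with an adjusted p of 0.482.

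Of the other genes on this list, several were higher at low counts. The crosslinking enzyme Loxl1 stood at 27.6 and 28.1 CPM against 0 and 8.23, a pooled ratio of 33.0 (counting interval 7.19 to 306), and Ltbp1, which holds latent TGF-beta in the matrix, at 41.4 and 28.1 against 0.934 and 0, a pooled ratio of 47.9 (counting interval 11.3 to 430). The collagen gene Col8a1 stood at 146 and 84.2 CPM against 7.94 and 4.12 (4.2 ± 0.54), and Ccn2 at 91.1 and 28.1 against 6.54 and 8.23 (3.61 ± 0.53). These 4 lost their call without library 1 (edgeR adjusted p from 0.525 to 0.767). The protease inhibitor Timp3 stood at 129.7 and 197 CPM against 14.5 and 20.6 (3.16 ± 0.38) and Col1a2 at 516 and 842 against 219.9 and 222 (1.37 ± 0.23). Both kept their calls, as did Mgp. Col1a2 is itself on the fibroblast list, where Col3a1 stood at 262 and 842 CPM and Col1a1 at 0 and 309, and the part of fibroblast RNA in its level was not tested.

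Lower in smooth muscle cells were Cthrc1, a secreted collagen-associated protein, at 33.1 and 0 CPM against 501 and 387 (-4.03 ± 0.38, edgeR adjusted p = 1.1e-23), Postn at 24.8 and 0 against 105 and 107 and Fbln1 at 13.8 and 0 against 51.8 and 28.8. Only Cthrc1 kept its call without library 1 (0.136 and 0.479 for the others), and Fbln1 also lost it without library 2 (adjusted p = 0.109).

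Basement membrane genes differed chain by chain between the mural classes, with 5 higher and 4 lower of 21 tested. Among all genes the shares were 2.64% and 3.41%. The lower count was 3 without library 1, 1 without library 2, 2 without the cells that held other markers and 0 under DESeq2's Wald test. Lama5, the laminin alpha 5 chain, had UMIs in 15 of 64 and 3 of 8 cells, at 52.4 and 253 CPM against 0.934 and 0 in pericytes, a pooled ratio of 83.9 (counting interval 21.2 to 727; 301 without library 1). Lama2, the alpha 2 chain, ran the other way at 49.7 and 0 CPM against 101 and 107 (-1.24 ± 0.42, edgeR adjusted p = 0.046), and Lamb2 stood at 171 and 253 against 88.7 and 90.5 (1.02 ± 0.30) beside Lamb1 at 221 and 56.2 against 389.9 and 403 (-1.11 ± 0.27). Of these 4 chains, Lama5 alone was called with either library left out. Without library 1, Lama2 and Lamb2 lost their calls (adjusted p = 0.16 and 0.491), and without library 2, Lama2 and Lamb1 did (0.223 and 0.0524).

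Tinagl1, a matrix protein that binds integrins, stood at 511 and 309 CPM against 6.54 and 0 (6.35 ± 0.39, edgeR adjusted p = 4.2e-57), and Col18a1, the source of endostatin, at 265 and 281 against 43.0 and 65.8 (2.48 ± 0.31). Htra1, the serine protease mutated in CARASIL, a small vessel disease of the brain, stood at 91.1 and 56.2 CPM against 30.8 and 28.8 (1.51 ± 0.39) but without library 1 was at 0.53 (adjusted p = 0.879). The linker Nid1 was lower at 281 and 56.2 against 637 and 629.6 (-1.46 ± 0.26) and the perlecan gene Hspg2 at 33.1 and 0 against 83.6 and 139.9 (-1.63 ± 0.44, and adjusted p = 0.0576 without library 2). The main collagen chains Col4a1 and Col4a2 had log2 fold changes of -0.26 and 0.08 (adjusted p = 0.7 and 0.938).

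Several growth factor genes differed between the mural classes. Of the TGF-beta and BMP pathway 4 of 28 tested were higher (2.64% among all genes) and 1 lower, a share of 3.57% near the 3.41% of all genes. Tgfb2 stood at 166 and 253 CPM against 31.3 and 45.3 (2.39 ± 0.33), Tgfb3 at 77.3 and 84.2 against 15.4 and 16.5 (2.32 ± 0.52), and the BMP target Id3 at 665 and 1179 against 279.7 and 243 (1.55 ± 0.25). Tgfb1 was lower at 24.8 and 84.2 against 94.3 and 103 (-1.61 ± 0.43). In the PDGF, angiopoietin and VEGF list 3 of 26 were higher and 3 lower, and 0 and 2 without library 1. Pdgfa stood at 226 and 168 CPM against 26.6 and 20.6 (3.07 ± 0.35), placental growth factor Pgf at 185 and 197 against 23.8 and 16.5 (3.03 ± 0.38) and Angpt2 at 30.4 and 56.2 against 2.33 and 8.23 (3.43 ± 0.79). Igf2 was lower at 85.5 and 56.2 against 775 and 893 (-3.30 ± 0.31). Tgfb2, Id3, Igf2 and Pdgfrb kept their calls with either library left out, while without library 1 those of Tgfb1, Tgfb3, Ltbp1, Pdgfa, Pgf, Angpt2 and Tie1 were lost (edgeR adjusted p from 0.129 to 0.761).

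Cell cycle genes gave few calls against pericytes, beside 2.64% higher and 3.41% lower among all genes. In S phase 0 of 28 were called, and in G2 and M phase 0 were higher and 1 lower of 34. The G2 and M count depended on the library. It was 0 higher and 5 lower without library 1 and 1 higher and 0 lower without library 2. Against endothelial cells it was 2 higher and 0 lower, turning to 0 and 4 without library 1 and to 17 and 0 without library 2, so no direction is given for this list. The proliferation gene Mki67 had UMIs in 8 of 64 and 0 of 8 smooth muscle cells, at 33.1 and 0 CPM against 73.3 and 32.9 in pericytes (edgeR adjusted p = 0.164). The gene called lower was the mitotic kinase gene Bub1 (adjusted p = 0.0465; 0.629 without library 1 and 0.115 without library 2).

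Stress and immediate early genes were higher in smooth muscle cells, 16 of 31 tested with 0 lower and a median log2 fold change of 1.70. Among all genes 2.64% were higher and 3.41% lower, and 6.45% and 10.4% against endothelial cells. The heat shock genes Hspa1a, at 568 and 1488 CPM against 47.6 and 156 (3.32 ± 0.28, edgeR adjusted p = 2.5e-29), and Hspa1b, at 527 and 730.1 against 48.6 and 74.1 (3.32 ± 0.29), stood out. The small heat shock gene Hspb1, at 709 and 730.1 CPM against 85.0 and 94.7 (2.97 ± 0.26), is also a gene of muscle cells. Fos stood at 439 and 646 CPM against 87.8 and 70.0 (2.51 ± 0.28), Jun at 326 and 646 against 105 and 107 (1.87 ± 0.29) and Atf3 at 63.5 and 56.2 against 2.80 and 8.23 (4.17 ± 0.57, with an adjusted p of 0.332 without library 1). Against endothelial cells the same list had 9 higher and 5 lower (4 and 1 without library 1), and Jun was at a log2 fold change of 0.01 (adjusted p = 1). Against pericytes 10 were higher and 0 lower without library 1, and 17 and 0 without library 2. These genes respond within minutes to tissue dissociation as well as to signals in life, and the part of dissociation in their levels, and in any other gene group above, was not tested.

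The list of respiratory chain isoforms and glycolysis genes had 1 higher and 3 lower of 30 tested, beside 2.64% and 3.41% among all genes, and 2 and 1 without library 2, so the list as a whole shows little. Its called genes are given singly. Cox4i2, an isoform of cytochrome oxidase subunit 4 known for its role in oxygen sensing, stood at 284 and 84.2 CPM against 762 and 885 (-1.73 ± 0.26, edgeR adjusted p = 1.9e-09; 0.611 by DESeq2's Wald test), while Cox4i1, the common isoform, stood at 1007 and 871 against 1031 and 1218 (adjusted p = 0.654). Ndufa4 was higher, at 938 and 562 CPM against 309.6 and 251 (1.44 ± 0.25; 0.59 with an adjusted p of 0.721 without library 1), and its homologue Ndufa4l2 lower at 867 and 899 against 1679.5 and 1679 (-1.04 ± 0.24; -0.87 without library 2). The pyruvate kinase gene Pkm was lower at 301 and 253 against 591 and 761 (-1.21 ± 0.27; -0.96 without library 2).

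Of the 148 genes followed against pericytes, 55 lost their call under DESeq2's Wald test. They included Actg2, Lmod1 and Fmod (adjusted p = 0.41, 0.939 and 0.582), Mgp and Myl9 (0.856 and 0.413), the receptors Tbxa2r and S1pr3 (0.583 and 0.274) and the pericyte genes Atp13a5 and Cox4i2 (0.401 and 0.611). Crip1, Tpm1, Tpm2, Csrp1, Higd1b, Pdgfrb, Jag1, Tinagl1, Cthrc1 and Igf2 were not among them. Without the 12 cells that held markers of other cell types, 16 of the 148 calls were lost (edgeR adjusted p from 0.0106 to 0.368), among them those of Gucy1a1, Pde5a, Zic1, Ndufa4l2, Gjc1, Lamb1, Lama2 and Fbln1, and the contractile list had 18 higher and 0 lower. With pericytes of up to 9 UMIs of the gate genes, a setting chosen after seeing the data, it had 17 higher and 0 lower.

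**Figure D4:**
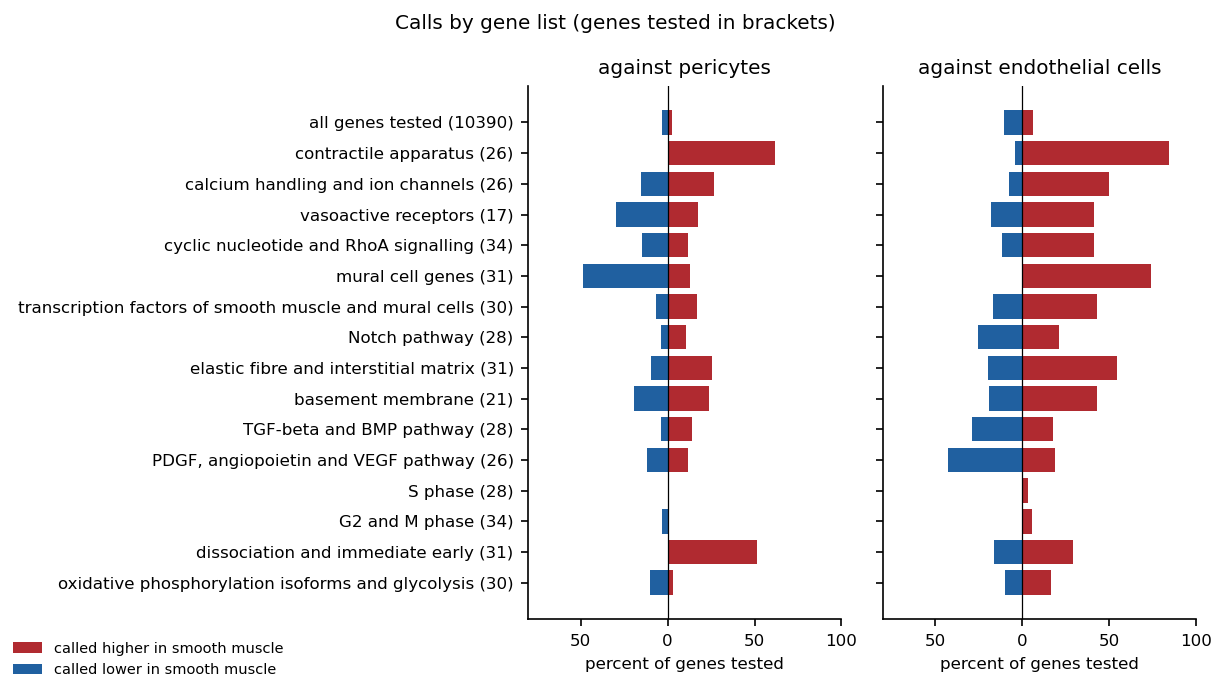
Bars give the percent of tested genes of each list called higher (right of 0) or lower (left of 0) in smooth muscle cells, against pericytes and against endothelial cells, with the number tested in brackets. Against pericytes the contractile list (16 of 26) and the dissociation list (16 of 31) lie to the right, and the mural list (15 of 31) to the left.

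Outside the lists, the genes with the largest fold over pericytes at 50 CPM or more included matrix, membrane and signalling genes. Fmod, the collagen-binding proteoglycan fibromodulin, had 59 and 4 UMIs and 0 in pericytes, endothelial cells, astrocytes and microglia, at least 109-fold higher than in pericytes. Cav1, the scaffold of caveolae, stood at 276 and 337 CPM against 0.934 and 0, a pooled ratio of 336 (counting interval 90.7 to 2805), but at 182 and 216 CPM in endothelial cells. Cd93, known as an endothelial receptor, stood at 108 and 168 CPM against 0.467 and 0 in pericytes (ratio 270, interval 46.0 to 10884) and 507 and 558 in endothelial cells. Of the 8 listed endothelial markers, Cdh5, Ly6c1, Pecam1, Slco1a4 and Tie1 were at 0 UMIs in the same smooth muscle cells, Itm2a had 26 and 3 UMIs, and Flt1 and Cldn5, which the rule limits, had 17 and 3 and 1 and 0.

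The olfactory receptor gene Olfr78, known from arterial smooth muscle and the carotid body, had 18 UMIs in 13 of 64 cells and 3 UMIs in 3 of 8 cells and 0 in pericytes and endothelial cells, at least 53.2-fold higher than in pericytes. Aoc3, a vascular amine oxidase, stood at 80.0 and 197 CPM against 0.934 and 0 (ratio 108, interval 27.8 to 925; 234 without library 1), and the netrin Ntn4 at 121 and 253 against 2.33 and 0 (5.95 ± 0.59, edgeR adjusted p = 3.0e-21). Rcan2, a calcineurin inhibitor, Dgkb, Fabp3, Insc, Tspan2, Fbxl22 and Myom1, an M-band protein of striated muscle, were called too. Without library 1 the calls of Myom1, Fbxl22 and Fabp3 were lost (adjusted p = 0.0676, 0.0871 and 0.133), and Fmod, Olfr78, Aoc3, Nrip2, Insc and Trac could not be tested.

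Trac, the gene segment of the T cell receptor alpha constant region, was among the genes most restricted to smooth muscle among the classes compared. It had 26 UMIs in 18 of 64 cells and 3 UMIs in 3 of 8 cells, 3 UMIs in all pericytes (ratio 57.9, counting interval 18 to 297), 0 in endothelial cells and 0 in microglia. Shares after thinning were 14.1% and 12.5%. The T cell genes Cd3d, Cd3e, Cd3g and Trbc2 were at 0 UMIs in the same cells. The counts per gene do not show which part of the locus the reads came from.

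Across all 5 other classes, including the 10 fibroblasts of library 1, the genes with the largest ratio of the mean smooth muscle CPM to the highest other class were, in order, Actg2, Htr1b, Nrip2, Trac, Myom1, Insc, Gpr20, Lmod1, Map3k7cl, Crip1, Ntn4, Aoc3, Fmod, Olfml2b and Mustn1. The transcriptional cofactor gene Nrip2 stood at 146 and 140.4 CPM, with 1 of 8 cells of library 2 holding its 5 UMIs there. The orphan receptor Gpr20 stood at 66.2 and 56.2 CPM against 4.2 and 0 in pericytes (4.13 ± 0.74), and Map3k7cl at 168 and 197 against 11.2 and 12.3 (3.90 ± 0.46, with an adjusted p of 0.145 without library 1). The ratios rank these genes and were not tested. Neurons, cells of the oligodendrocyte lineage and ependymal cells were not among the classes, so the ranking says nothing about levels there.

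Genes called lower than in pericytes with 0 UMIs in smooth muscle cells included Itih5, Mmp9, Slc22a8, Nxph4 and Pla1a, and the globin genes Hba-a2 and Hbb-bt. The globin bounds were 14.8-fold and 8.8-fold, or 1.32-fold and no bound above 1 without library 1. Erythroid markers summed to 1.87 and 1375 CPM in pericytes of library 1 and 2, and their part in the globin values was not tested. Itih5, which stabilises hyaluronan in the matrix, stood at 224 and 288 CPM in pericytes, at least 33.9-fold higher there, and the gelatinase Mmp9 at 85.0 and 214 CPM, at least 19.8-fold. These bounds rest on the depth of library 1 and were 3.04-fold and 1.77-fold without it. The organic anion transporter Slc22a8 was at least 10.8-fold higher in pericytes, with no bound above 1 without library 1, and endomucin (Emcn), with 1 UMI in smooth muscle cells, had a pooled ratio of 61.8 (counting interval 11.0 to 2446). Slc22a8 and Emcn stood at 306 and 169 CPM in endothelial cells of library 1, against 76.6 and 155 in pericytes. Without library 1 the calls of Slc22a8, Nxph4 and Pla1a were lost (edgeR adjusted p = 0.185, 0.348 and 0.526), while those of Itih5, Mmp9 and Emcn were kept.

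Against endothelial cells, the lining of the same vessels (115 and 137 barcodes, median 6038 and 4586 UMIs), 670 genes were higher in smooth muscle cells (6.45% of 10390 tested) and 1081 lower (10.4%). This comparison shares its smooth muscle sums and its tested genes with the one above. The endothelial gate allows at most 2 UMIs of Acta2, Tagln and Myh11 together and at most 2 of Kcnj8, Abcc9 and Vtn. The contractile and mural lists are thus not independent of that gate. Of the mural list 23 of 31 were higher and 0 lower, with Rgs5 at 2.40 and 1.26 CPM, Notch3 at 1.20 and 0 and Pdgfrb at 0 and 0 in endothelial cells. The contractile list had 22 higher and 1 lower of 26, the lower gene being Smtn, at 44.2 and 56.2 CPM against 101 and 117 (-1.33 ± 0.41, edgeR adjusted p = 0.00778; 0.318 without library 1). Calcium and channel genes were 13 higher and 2 lower (6 and 1 without library 1), and cyclic nucleotide and RhoA genes 14 and 4 (11 and 1).

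Signalling lists held calls in both directions, beside 6.45% higher and 10.4% lower among all genes. Of the PDGF, angiopoietin and VEGF list 26 genes were tested, of the TGF-beta and BMP list 28 and of the Notch list 28. The PDGF, angiopoietin and VEGF list had 5 higher and 11 lower (4 and 7 without library 1), the TGF-beta and BMP list 5 and 8 (0 and 6), and the Notch list 6 and 7 (5 and 3), whose balance turned. In the Notch list the endothelial ligand Dll4 was at 0 UMIs in smooth muscle cells and at 97.0 and 54.0 CPM in endothelial cells (adjusted p = 4.4e-10, and 0.213 without library 1), and Hes1 at 262 and 309 against 1002 and 703 (-1.92 ± 0.27, edgeR adjusted p = 4.2e-11). The barrier genes Slco1c1 and Mfsd2a, a thyroid hormone and a lipid transporter, and Spock2 and Ctla2a were at 0 UMIs in all 72 smooth muscle cells, against 890.2 and 957, 683 and 592, 1572 and 1669.5, and 2587 and 2225 CPM in endothelial cells. Hspb2, a small heat shock gene of muscle, was at 447 and 365 CPM in smooth muscle and 0 and 0 in endothelial cells. Of the immediate early genes, Fos was higher than in endothelial cells too (1.85 ± 0.28).

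Within the smooth muscle cells as drawn, those with more UMIs of the gate genes tended to hold fewer of some pericyte-type mural genes. The gate genes chose these cells, so the values describe the cells as drawn and test nothing. With each cell thinned to 1500 UMIs, Spearman's rho over the 72 cells between the gate genes and Rgs5 was -0.382, with Vtn -0.298 and with Higd1b -0.408. It was weaker with Pdgfrb (-0.22) and Ndufa4l2 (-0.208). With Myl9 it was 0.688, with Tpm2 0.588, with Actg2 0.470 and with Eln 0.448, and with Notch3 -0.0192. The cells share 2 libraries, the counts are small and the percentages share a total, so these are descriptions with no p. In library 1 alone rho was -0.411 for Rgs5, and without the 12 cells that held markers of other types it was -0.547.

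The cells were also split by their elastin UMIs, a split chosen after the values were seen and not compared with splits by other genes. Of the 72 cells, 13 held at least 5 Eln UMIs (all in library 1), 18 held 1 to 4 (16 and 2) and 41 held 0 (35 and 6). Their median depths were 5245, 5552.5 and 5193 UMIs. The gate genes took a median of 4.59%, 2.68% and 1.51% of UMIs and Rgs5 a median of 0.100%, 0.605% and 0.662%. Rgs5 was under 0.2% of UMIs in 9 of 13, 1 of 18 and 3 of 41 cells, so the cells with most elastin held most contractile and least Rgs5 message. Cells with 3 or more UMIs of another type numbered 0, 2 and 10 in the 3 groups and doublet calls 0, 1 and 3, and their part in the split was not tested.

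Summed over each of these groups, Acta2 stood at 25429, 14453 and 9214 CPM, from most to least Eln, and Actg2 at 934, 552 and 147. Cnn1 stood at 292, 20.4 and 8.64 CPM, a ratio of 33.8 between the ends (counting interval 8.21 to 298), and Myocd at 146, 30.7 and 4.32. Matrix genes went both ways. Of 38 genes of the elastic and interstitial list with a UMI, Eln aside, 8 had a ratio of the ends whose counting interval lay above 1, 1 (Bgn) below 1 and 29 around 1. The basement membrane list had 4 above, 4 below and 12 around 1. Above were Tinagl1 at 1255, 593 and 225 CPM, Col8a1 at 452, 153 and 43.2, Htra1 at 336, 40.9 and 34.5 and the elastin crosslinking enzyme Lox at 160, 30.7 and 21.6. Below were Col4a1, Lama4, Lamc3 and Agrn, the last at 131, 194 and 302 CPM (ratio 0.434, interval 0.191 to 0.873). The contractile list, without the gate genes, had 18 above and 0 below of 31. The share over all genes was not computed for this split, so these list counts have no background beside them. Ramp1, at 219, 61.3 and 25.9, and Jag1, at 1371, 910 and 453, were highest in the cells with most Eln. The stress and immediate early list also had 14 above and 0 below of 33, and the G2 and M list 9 above and 1 below of 35, and their part in the other differences was not tested.

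Of 34 mural genes with a UMI 12 were below, 0 above and 22 around 1, again with no share over all genes beside the count. Rgs5 stood at 2349, 5683 and 6848 CPM, a ratio of 2.92 between the ends (counting interval 2.48 to 3.45), Vtn at 1021, 1768 and 2487, Higd1b at 131, 654 and 1101, Ndufa4l2 at 219, 685 and 1140 and Cox4i2 at 72.9, 194 and 354. Notch3, at 336, 399 and 449 (ratio of most to least Eln 0.747, interval 0.454 to 1.18), and Pdgfrb, at 204, 266 and 289 (0.706, 0.366 to 1.27), had intervals that include 1. The intervals cover counting error alone, since the 13 cells come from 1 library and are not replicates.

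**Figure D5:**
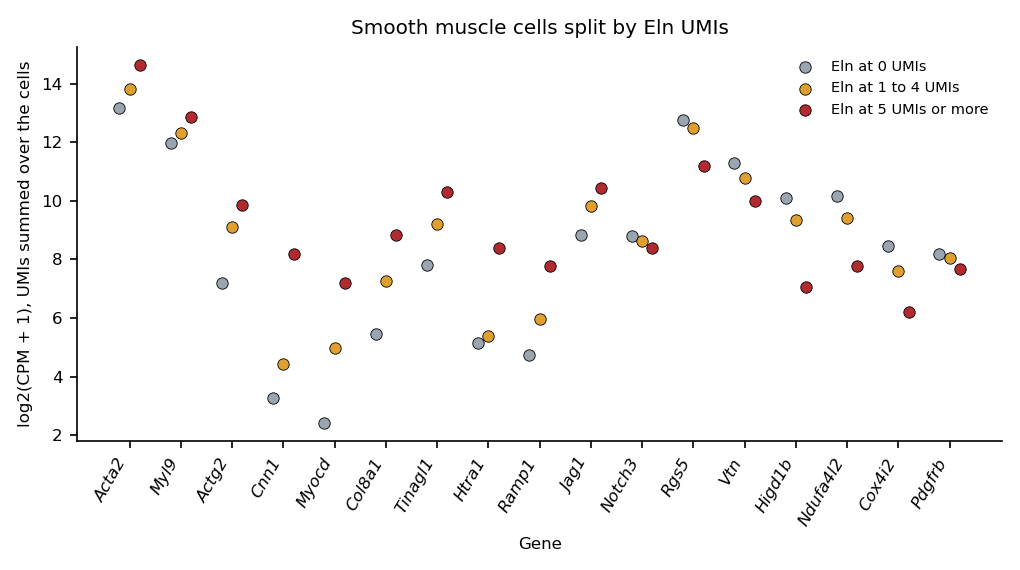
UMIs summed over the smooth muscle cells with at least 5, with 1 to 4 and with 0 Eln UMIs (13, 18 and 41 cells) are shown as log2(CPM + 1) for each gene. Genes such as Cnn1 and Tinagl1 are highest in the cells with most Eln, Rgs5 and Higd1b in those with 0, and Notch3 and Pdgfrb lie close together.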

How the data were processed

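The authors deposited UMI counts per gene and cell barcode, not normalized, made with Cell Ranger 6.1.2 on mm10, per the submitters' processing notes. For cell calling and the annotation release, settings were not given in the sources used here. Gene positions came from GENCODE M21, matched by gene identifier.

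Members and lists were chosen with earlier results of these data known. Classes were drawn by gates on raw UMIs. Pericytes held at least 4 UMIs of Kcnj8, Abcc9 and Vtn together with Kcnj8 or Abcc9, endothelial cells at least 5 of Cldn5 and Flt1, microglia at least 5 of P2ry12 and Cx3cr1, and astrocytes at least 3 of Aqp4. Each held at most 2 UMIs of Acta2, Tagln and Myh11 together. Endothelial cells, astrocytes and microglia also held at most 2 of Kcnj8, Abcc9 and Vtn together. UMIs were summed per library and class, so n = 2, and tested with edgeR 4.0.16 (R 4.3.3; quasi-likelihood F test, TMM, filterByExpr, two-sided, 4 residual degrees of freedom). The library was a block because classes of 1 library share a suspension. Gate genes were left out. Counts over gene lists include some genes that are not reported here. The code was tested on simulated data. Fibroblasts (10 and 0 cells) were not fitted. Named genes were those of the lists, the 15 called higher and 10 called lower with the largest fold at 50 CPM or more, and the 15 most restricted to smooth muscle among the classes drawn. Doublets were called with Scrublet in scanpy 1.11.5; the automatic threshold marked 0 barcodes in library 2, so the highest 6% of scores were used there (898). Alternatives included DESeq2 1.42.0.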

Additional observations from a re-analysis of the deposited data

How the results depend on the processing

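Against pericytes, 274 genes were higher and 354 lower. With library 1 or library 2 of the smooth muscle cells left out, the counts ranged from 106 to 323 higher and from 142 to 266 lower, and against endothelial cells (670 and 1081) from 302 to 977 and from 410 to 946. The lone sum is assumed to vary like the other classes. Without library 1 the median log2 fold change over all genes was -1.46 in both comparisons, beside -0.18 in both main fits. Fold changes and list counts without library 1 are thus shifted downward as a whole. DESeq2's Wald test gave 101 lower against pericytes and 618 against endothelial cells, and a fit of smooth muscle cells and pericytes alone gave 220 lower; the cause was not tested. All other counts of calls over all genes stayed within 1.5 times under DESeq2 size factors, no filter, stricter quality limits, a threshold of 20 UMIs, doublets or cells with other markers left out, and the wider pericyte gate added after seeing the data. Pairing classes by library was the design; with no replicate block the counts were 255 and 289 against pericytes and 668 and 1050 against endothelial cells, and 8 of 148 and 12 of 232 followed calls were lost. None of the 148 and 232 followed genes reversed its direction under any setting that could test it. Counts within single lists moved more. Of the 30 list counts against pericytes (15 lists, higher and lower), 17 moved by over 1.5 times without library 1, 4 without library 2, 11 under the Wald test and 5 in the fit of smooth muscle cells and pericytes alone, and from 0 to 2 under each other setting. Against endothelial cells these numbers were 17, 3, 4 and 2, and from 0 to 2. Under the Wald test the calls against pericytes were 4 higher and 1 lower for calcium and channel genes (7 and 4 by edgeR), 2 and 1 for receptors (3 and 5), 2 and 0 for cyclic nucleotide and RhoA genes (4 and 5), 2 and 5 for mural genes (4 and 15), 2 and 0 for transcription factors (5 and 2), 7 and 1 for the elastic and interstitial matrix (8 and 3) and 4 and 0 for the basement membrane (5 and 4). In the fit of both classes alone, 4 calcium and 5 elastic and interstitial matrix genes were higher and 2 cyclic nucleotide, 2 basement membrane and 1 transcription factor gene lower. The balance of the G2 and M list turned with the library left out, and that of the Notch list against endothelial cells turned without library 1. The share of smooth muscle cells moved within its interval in both libraries. The fibroblast alternatives were not run because library 2 held 0 such cells. Library 2 holds 8 smooth muscle cells with 35610 UMIs, so a gene under 84.2 CPM can be at 0 there by counting alone, and 72 of the 148 calls against pericytes were lost without library 1.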
